A study of Homo sapiens with 12 samples.

Results

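The genes of the conserved oligomeric Golgi (COG) complex were followed through RNA sequencing of a human mammary epithelial cell model treated with salinomycin. The members are the genes of its subunits, COG1 to COG8, taken by symbol. All 8 were found among the 26357 genes named alike in all 4 deposited tables, and all 8 passed the filter on low values, which left 11777 genes for testing. HMLE is an immortalised line of human mammary epithelial cells. 4 groups of 3 biological replicates were compared: HMLE-Twist cells, labelled as EMT (epithelial to mesenchymal transition), with salinomycin at 0.2 uM for 24 h, HMLE-Twist cells with the mock (DMSO), HMLE-pBp cells, labelled nonEMT, with the same salinomycin treatment, and HMLE-pBp cells with the mock. The sources used here do not name the promoter that drives Twist, what pBp stands for or whether a line is 1 clone, and each line is 1 model, so a difference between the lines is a difference between these 2 cell populations. Salinomycin is a polyether ionophore that carries monovalent cations across membranes and is known for its action on breast cancer cells with stem-like or mesenchymal traits.

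COG is a tethering complex of the Golgi apparatus. It catches the vesicles that carry glycosylation enzymes and other resident proteins back to earlier cisternae, and it works with SNAREs, Rab GTPases, golgins and the COPI vesicle coat. COG1 to COG4 form lobe A and COG5 to COG8 form lobe B, and the lobes are joined through COG1 and COG8. Inherited loss of COG subunits causes congenital disorders of glycosylation.

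The labels were met by the markers. All 8 epithelial markers on the list were lower and all 7 mesenchymal markers higher in HMLE-Twist than in HMLE-pBp under the mock, with TWIST1 at a mean of 718 FPKM (fragments per kilobase of gene length and library size) in HMLE-Twist and 2.52 FPKM in HMLE-pBp. The leukocyte markers PTPRC, CD3E and LYZ and the endothelial markers PECAM1, VWF and CDH5 had group means of at most 0.109 FPKM, while CD14, also on the leukocyte list, averaged 1.28 FPKM in HMLE-Twist mock and 23.0 FPKM in HMLE-pBp mock, and KDR averaged 0.827 FPKM in HMLE-Twist mock and 0.0245 FPKM in HMLE-pBp mock. The 12 libraries held 17.91 to 26.73 megareads as recovered. In a principal component analysis, component 1 carried 86.6% of the variance and parted the lines, and component 2 carried 5.07% and parted the treatments within each line. Each COG gene had between 281 and 2291 reads in every library.

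The sequences just before the transcription start are shown for the subunits on which the results turn: COG6, COG3 and COG5, which had the 3 largest log2 fold changes in HMLE-Twist, and COG4, whose response differed between the lines. Each is the 250 bases upstream of the RefSeq start (build GRCh38.p14), 5′ to 3′ on the strand of the gene. Capitals mark matches to any of 8 motifs searched on both strands.
COG6, chr13:39655377-39655626, plus strand: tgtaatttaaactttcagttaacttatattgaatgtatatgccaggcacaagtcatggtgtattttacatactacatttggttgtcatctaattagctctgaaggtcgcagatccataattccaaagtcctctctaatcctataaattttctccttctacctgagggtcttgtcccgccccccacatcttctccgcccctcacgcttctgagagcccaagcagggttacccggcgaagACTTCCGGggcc
COG3, chr13:45464689-45464938, plus strand: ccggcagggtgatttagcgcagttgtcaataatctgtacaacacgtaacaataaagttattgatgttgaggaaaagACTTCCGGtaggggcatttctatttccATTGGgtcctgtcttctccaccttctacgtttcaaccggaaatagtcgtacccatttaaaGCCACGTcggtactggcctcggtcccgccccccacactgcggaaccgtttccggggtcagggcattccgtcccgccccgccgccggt
COG5, chr7:107563921-107564170, minus strand: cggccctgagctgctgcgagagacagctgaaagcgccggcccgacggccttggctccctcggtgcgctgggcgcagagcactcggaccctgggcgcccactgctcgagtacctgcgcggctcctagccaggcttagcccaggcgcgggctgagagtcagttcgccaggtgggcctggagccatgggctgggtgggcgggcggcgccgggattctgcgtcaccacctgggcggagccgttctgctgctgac
COG4, chr16:70523555-70523804, minus strand: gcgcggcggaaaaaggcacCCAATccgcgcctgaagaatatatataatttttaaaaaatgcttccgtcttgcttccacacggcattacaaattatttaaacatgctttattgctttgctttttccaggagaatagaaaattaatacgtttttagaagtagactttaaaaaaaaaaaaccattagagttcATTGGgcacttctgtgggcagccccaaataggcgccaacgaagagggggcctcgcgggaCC

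The motifs were ACGTGGC, the Golgi stress element read by TFE3, TGACGTGG (the unfolded protein response element), the longer ER stress element ERSE, TGACGTCA (the cAMP response element), CACGTG (an E-box), CCGGAAGT (an ETS site), TGATGNAA (a C/EBP-ATF site) and CCAAT (an NF-Y site). ACGTGGC shares letters with TGACGTGG and can overlap CACGTG, and CCAAT lies within ERSE. RefSeq windows of 250 bases before to 50 bases after the start matched 7 of the 8 genes, COG7 being the other, and COG6 had 2. ACGTGGC was found in the window of COG3, on the reverse strand, its first base 87 bases before the start, and in 3.21% of all 35116 windows. CCGGAAGT was found in the windows of COG3 (2 matches, 1 of them after the start and so not shown), COG4 and COG6, and in 4.14% of all windows. The COG4 match begins 2 bases before the start, so only its first letters appear here. CCAAT was found in the windows of COG2, COG3, COG4 and COG8, and in 34.6% of all windows. The windows of COG1 and COG5 held none of the 8 motifs, and no member's window held TGACGTGG (0.729% of all windows), ERSE (0.0769%), TGACGTCA (1.85%), CACGTG (7.26%) or TGATGNAA (3.62%). A match is a stretch of letters and was not tested for binding.

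In HMLE-Twist cells, the transcripts of 5 COG subunits were higher with salinomycin and 1 was lower. COG6, COG3, COG5, COG1 and COG7 rose, COG4 fell, and COG2 and COG8 did not pass the test. The share of all tested genes that passed (limma without pairing of replicates, Benjamini-Hochberg adjusted p under 0.05 over 11777 genes) was 26.4%, with 12.9% higher and 13.5% lower. The median log2 fold change was 0.34 over the 8 members and -0.01 over all tested genes. Fold changes here are on the log2(FPKM + 1) scale, which understates the change of low genes, and in bulk RNA a change in the number of cells that express a gene and in the RNA per cell cannot be told apart. Overlap between libraries, given below for the members, was not counted over all tested genes and is a description.

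In HMLE-pBp cells, 4 subunits rose and none fell by the same test. These were COG6, COG3, COG1 and COG5, all of which also rose in HMLE-Twist, while COG2, COG4, COG7 and COG8 did not pass. With the replicate number as a block within each line, COG4 passed too, higher with salinomycin (log2 fold change 0.19, adjusted p = 0.0499). Without that block, 19.0% of all tested genes passed, 9.65% higher and 9.32% lower. The median log2 fold change was 0.38 over the members and -0.01 over all tested genes. No subunit was lower at an unadjusted p under 0.05 in limma either, though COG8 (log2 fold change -0.23) was near it at 0.0576. By limma voom none was lower at an adjusted p under 0.05.

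**Figure D1:**
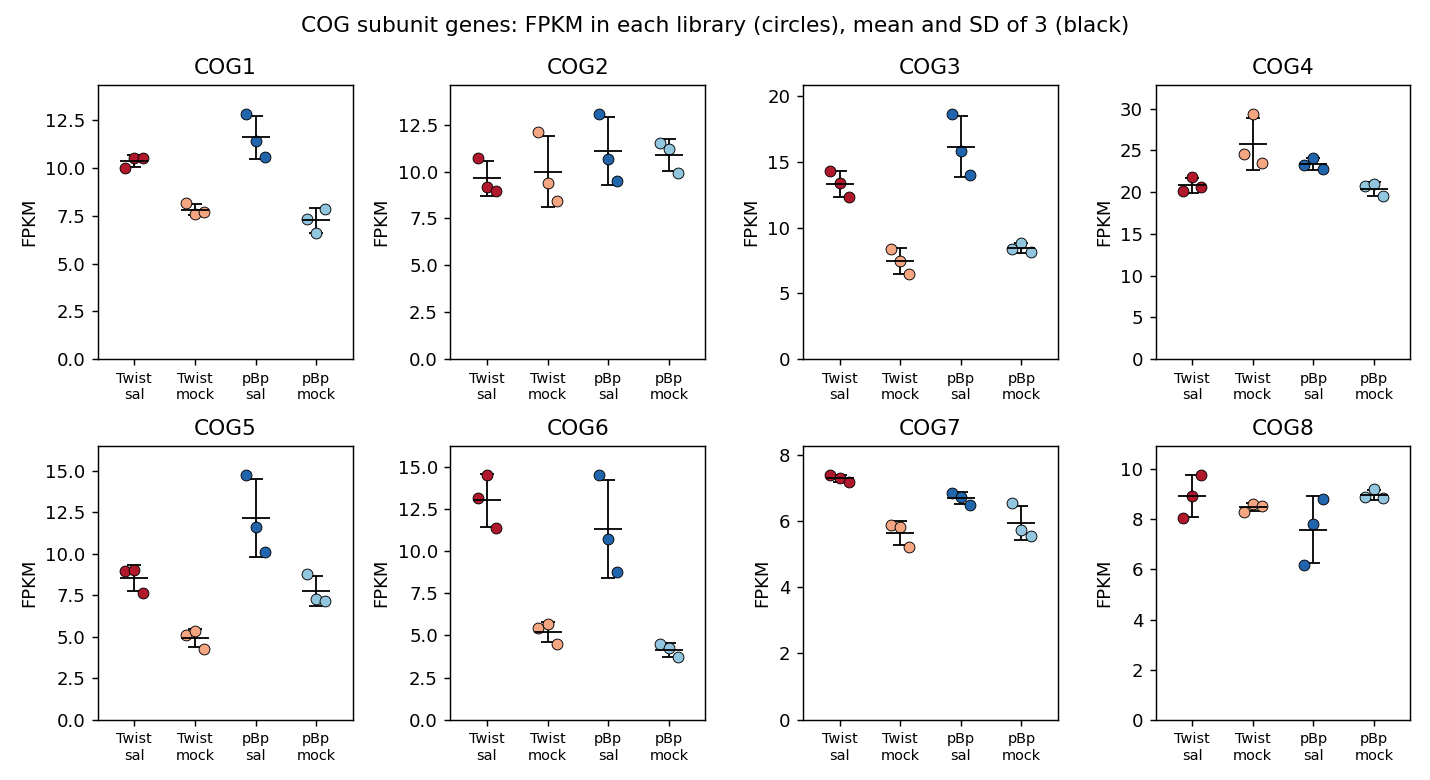
FPKM of each COG subunit gene (vertical axes, starting at 0) in every library, with sal for salinomycin, Twist for HMLE-Twist and pBp for HMLE-pBp. Circles are libraries and black bars the mean ± SD of 3. COG6 and COG3 lie higher in all salinomycin libraries than in any mock library, and COG4 is lower with salinomycin in HMLE-Twist and higher in HMLE-pBp.

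In lobe A, COG3 and COG1 rose in both lines. COG3, a subunit whose loss leaves vesicles untethered around the Golgi, was measured at 14.3, 13.4 and 12.3 FPKM in HMLE-Twist salinomycin and at 8.40, 7.46 and 6.43 FPKM in HMLE-Twist mock. The HMLE-pBp libraries had 18.6, 15.8 and 14.0 FPKM with salinomycin and 8.34, 8.84 and 8.15 FPKM with the mock. Every salinomycin library was above every mock library in both lines. The log2 fold change was 0.77 ± 0.11 (SE, adjusted p = 0.000492) in HMLE-Twist and 0.85 ± 0.11 (adjusted p = 0.000486) in HMLE-pBp.

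COG1, which joins the lobes with COG8, was at 9.99, 10.5 and 10.5 FPKM in HMLE-Twist salinomycin and 8.17, 7.61 and 7.72 FPKM in HMLE-Twist mock. Its HMLE-pBp values were 12.8, 11.4 and 10.6 FPKM with salinomycin and 7.34, 6.58 and 7.86 FPKM with the mock. The treatments did not overlap in either line. COG1 rose by a log2 fold change of 0.36 ± 0.09 in HMLE-Twist (adjusted p = 0.0091) and of 0.61 ± 0.09 in HMLE-pBp (adjusted p = 0.0008). FAM104A, on the opposite strand, shares 194 exon bases with COG1, and its own log2 fold change was -0.29 (adjusted p = 0.0232) in HMLE-Twist and -0.10 (adjusted p = 0.454) in HMLE-pBp. The libraries were stranded, but the sources used here do not say whether the counting used strand, so reads of overlapping genes on opposite strands may be shared.

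COG4, the subunit known to bind the SNARE syntaxin 5 and its partner SCFD1, was the only member that fell. Its level was 20.1, 21.8 and 20.6 FPKM in HMLE-Twist salinomycin and 24.6, 29.3 and 23.5 FPKM in HMLE-Twist mock. The HMLE-pBp libraries were at 23.3, 24.1 and 22.7 FPKM with salinomycin and 20.7, 21.0 and 19.5 FPKM with the mock. Every salinomycin library was below every mock library in HMLE-Twist and above every mock library in HMLE-pBp. The log2 fold change was -0.29 ± 0.09 in HMLE-Twist (adjusted p = 0.0265) and 0.19 ± 0.09 in HMLE-pBp (adjusted p = 0.143). The replicate numbers pair the libraries within each line, and with the replicate number as a block within each line COG4 also passed in HMLE-pBp (adjusted p = 0.0499). The fall in HMLE-Twist did not pass with only the groups compared in the fit (adjusted p = 0.107), nor without salinomycin replicate 1 (0.0952), salinomycin replicate 3 (0.0846) or mock replicate 2 (0.103), the mock library with the highest value.

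COG2, which is known to bind the golgin-type tether USO1 (p115), did not pass in either line. It averaged 9.63 ± 0.945 FPKM in HMLE-Twist salinomycin and 9.98 ± 1.89 FPKM in HMLE-Twist mock (SD, n = 3 each). In HMLE-pBp it averaged 11.1 ± 1.80 FPKM with salinomycin and 10.9 ± 0.858 FPKM with the mock. The 95% interval of the log2 fold change ran from -0.33 to 0.26 in HMLE-Twist and from -0.28 to 0.31 in HMLE-pBp.

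In lobe B, COG6 had the largest log2 fold change of the complex in both lines. COG6, known to bind several Golgi SNAREs, was at 13.1, 14.5 and 11.3 FPKM in HMLE-Twist salinomycin and at 5.45, 5.65 and 4.51 FPKM in HMLE-Twist mock. COG6 in HMLE-pBp was at 14.5, 10.7 and 8.77 FPKM with salinomycin and at 4.48, 4.24 and 3.71 FPKM with the mock. The lowest salinomycin library was above the highest mock library of either line. The log2 fold change was 1.17 ± 0.15 (adjusted p = 0.00023) in HMLE-Twist and 1.24 ± 0.15 (adjusted p = 0.000338) in HMLE-pBp. It lay at percentile 99.0 and 99.5 of the log2 fold changes of all tested genes in the 2 lines.

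COG5, which pairs with COG7 within lobe B, was at 8.93, 9.03 and 7.64 FPKM in HMLE-Twist salinomycin and at 5.11, 5.32 and 4.29 FPKM in HMLE-Twist mock. HMLE-pBp libraries had 14.7, 11.6 and 10.1 FPKM with salinomycin and 8.77, 7.31 and 7.15 FPKM with the mock. The treatments did not overlap in either line. The log2 fold change was 0.69 ± 0.13 (adjusted p = 0.00242) in HMLE-Twist and 0.58 ± 0.13 (adjusted p = 0.0107) in HMLE-pBp. HBP1, on the opposite strand, shares 975 exon bases (12.6%) with COG5 and itself had log2 fold changes of 0.69 (adjusted p = 0.00994) in HMLE-Twist and 1.11 (adjusted p = 0.00115) in HMLE-pBp. DUS4L, also on the opposite strand, shares 252 exon bases (3.25%) with COG5 and did not pass in either line. The part of either gene in the COG5 values was not tested.

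COG7, the first subunit linked to a congenital disorder of glycosylation, was at 7.38, 7.30 and 7.18 FPKM in HMLE-Twist salinomycin and at 5.88, 5.82 and 5.21 FPKM in HMLE-Twist mock. In HMLE-pBp it was at 6.85, 6.74 and 6.49 FPKM with salinomycin and at 6.53, 5.74 and 5.54 FPKM with the mock. The treatments did not overlap in HMLE-Twist, and in HMLE-pBp mock replicate 1 reached into the salinomycin range. The log2 fold change was 0.32 ± 0.08 (adjusted p = 0.00994) in HMLE-Twist, and in HMLE-pBp it was 0.15 ± 0.08 (adjusted p = 0.193).

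COG8 did not pass in either line. It was at 8.06, 8.95 and 9.76 FPKM in HMLE-Twist salinomycin and at 8.29, 8.60 and 8.53 FPKM in HMLE-Twist mock. In HMLE-pBp it was at 6.16, 7.80 and 8.81 FPKM with salinomycin and at 8.87, 9.21 and 8.85 FPKM with the mock. The treatments overlapped in HMLE-Twist, while in HMLE-pBp every salinomycin library was below every mock library. The log2 fold change was 0.06 ± 0.11 (adjusted p = 0.725) in HMLE-Twist and -0.23 ± 0.11 (adjusted p = 0.158) in HMLE-pBp, and the value in HMLE-pBp turned on single libraries. It was -0.11 (adjusted p = 0.511) without salinomycin replicate 1 of HMLE-pBp and -0.33 (adjusted p = 0.0493) without salinomycin replicate 3, the 1 alternative under which COG8 passed there. COG8 shares 559 exon bases (22.4%) with PDF on the same strand, so reads of the 2 genes may have been split between them. PDF itself had log2 fold changes of 0.24 (adjusted p = 0.675) in HMLE-Twist and -0.63 (adjusted p = 0.235) in HMLE-pBp. NIP7, on the opposite strand, shares 194 exon bases (7.78%) with COG8. The log2 fold change of NIP7 was -0.17 (adjusted p = 0.329) in HMLE-Twist and -0.24 (adjusted p = 0.173) in HMLE-pBp. The part of either gene in the COG8 values was not tested.

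Salinomycin replicate 1 of HMLE-pBp was the highest library of its group for COG1, COG2, COG3, COG5, COG6 and COG7 and the lowest for COG8. Without it the 4 subunits that rose in HMLE-pBp still passed, with log2 fold changes of 1.06 for COG6, 0.75 for COG3, 0.54 for COG1 and 0.44 for COG5 (adjusted p = 0.0418).

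**Figure D2:**
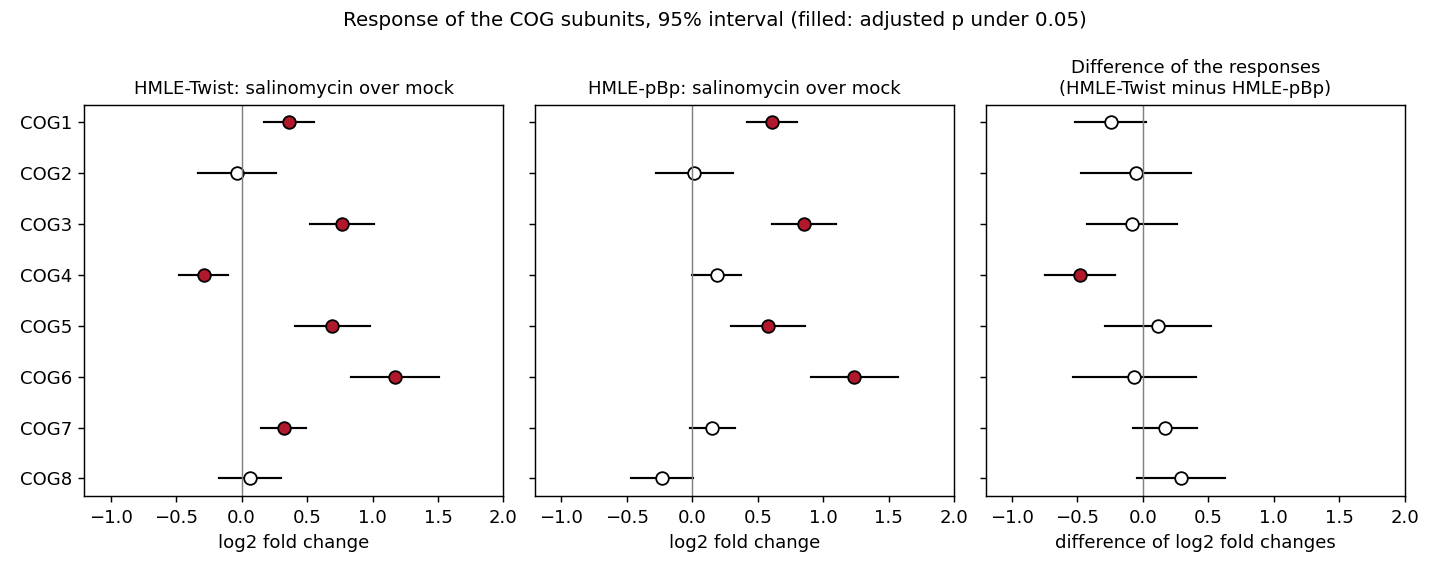
Log2 fold change on the log2(FPKM + 1) scale with its 95% interval (horizontal axis) for each subunit, salinomycin over mock in HMLE-Twist and in HMLE-pBp, and the difference of these responses. Filled points have an adjusted p under 0.05. COG6 and COG3 have the largest responses in both lines, and COG4 is the filled point in the difference.

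The responses of the lines were compared by the difference of the log2 fold changes, HMLE-Twist minus HMLE-pBp. COG4 passed, at -0.48 ± 0.12 (adjusted p = 0.0251), where 13.8% of all tested genes passed, 7.06% with a higher and 6.69% with a lower response in HMLE-Twist. It did not pass without salinomycin replicate 1 (adjusted p = 0.0675) or 3 (0.066) of HMLE-Twist, salinomycin replicate 2 (0.0603) or mock replicate 3 (0.0694) of HMLE-pBp, and the difference was between -0.45 and -0.47 in these fits. The other 7 subunits did not pass, with adjusted p-values of 0.193 to 0.871. The interval was -0.54 to 0.40 for COG6, -0.43 to 0.26 for COG3 and -0.29 to 0.52 for COG5, so differences of this size between the lines remain possible.

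Between the lines under the mock, COG4 was higher in HMLE-Twist and COG5 was lower. COG4 averaged 25.8 ± 3.10 FPKM in HMLE-Twist and 20.4 ± 0.806 FPKM in HMLE-pBp (SD, n = 3 each), a log2 fold change of 0.32 ± 0.09 (adjusted p = 0.00506). COG5 averaged 4.91 ± 0.544 FPKM in HMLE-Twist and 7.74 ± 0.892 FPKM in HMLE-pBp, a log2 fold change of -0.57 ± 0.13 (adjusted p = 0.0019). Both genes had no overlap between the lines, but nor had COG6 (adjusted p = 0.130) and COG8 (adjusted p = 0.548), which did not pass. Of all tested genes 73.3% passed in this comparison (36.1% higher and 37.2% lower), against 2 of the 8 members. HBP1, which overlaps COG5, averaged 12.3 FPKM in HMLE-Twist mock and 5.23 FPKM in HMLE-pBp mock. Its part in the COG5 difference between the lines was not tested.

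With salinomycin in both lines, COG5 alone passed, again lower in HMLE-Twist, at 8.54 ± 0.778 FPKM against 12.2 ± 2.36 FPKM in HMLE-pBp, a log2 fold change of -0.45 ± 0.13 (adjusted p = 0.00943). Of all tested genes 63.4% passed (31.3% higher and 32.0% lower). COG4, higher in HMLE-Twist under the mock, averaged 20.8 ± 0.903 FPKM in HMLE-Twist and 23.4 ± 0.687 FPKM in HMLE-pBp (log2 fold change -0.16 ± 0.09, adjusted p = 0.125). With the total of reads as scaling, which shifts the median of all genes to 0.14 in this comparison and in that under the mock, COG5 did not pass with salinomycin (-0.31, adjusted p = 0.063).

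Levels between subunits were compared per length, in FPKM. COG4 was the highest subunit in each of the 12 libraries. The lowest was COG7 in 5 of the 6 salinomycin libraries and COG8 in salinomycin replicate 1 of HMLE-pBp, COG5 in all HMLE-Twist mock libraries and COG6 in all HMLE-pBp mock libraries. The highest over the lowest was 2.86 ± 0.14 in HMLE-Twist salinomycin and 5.26 ± 0.39 in HMLE-Twist mock. For HMLE-pBp it was 3.62 ± 0.14 with salinomycin and 4.94 ± 0.31 with the mock (SD, n = 3 each). The lengths recovered from the tables for COG5 and COG6, 7553 and 7005 bases, correspond to the union of their exons and exceed their shortest reference transcripts of 4060 and 3449 bases, so their levels against other subunits would be higher if the shorter transcripts prevail.

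**Figure D3:**
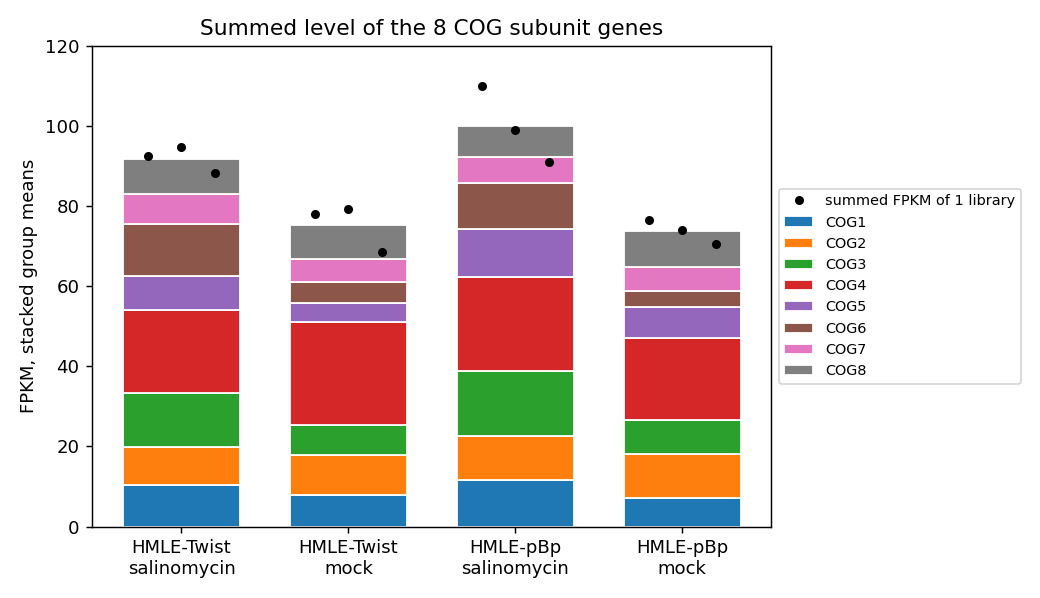
Stacked mean FPKM of the 8 COG subunit genes in each group (vertical axis, from 0), with the summed FPKM of each library as a black point. The sums lie between 88.3 and 110 in the 6 salinomycin libraries and between 68.6 and 79.2 in the 6 mock libraries.

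The summed level of the 8 subunits was 91.9 ± 3.27 FPKM in HMLE-Twist salinomycin and 75.3 ± 5.79 FPKM in HMLE-Twist mock. In HMLE-pBp it was 100 ± 9.52 FPKM with salinomycin and 73.8 ± 2.98 FPKM with the mock (SD, n = 3 each). All 6 salinomycin libraries were above all 6 mock libraries. Lobe A over lobe B was 1.44 ± 0.05 in HMLE-Twist salinomycin and 2.10 ± 0.06 in HMLE-Twist mock. For HMLE-pBp the ratio was 1.65 ± 0.04 with salinomycin and 1.76 ± 0.07 with the mock. The treatments did not overlap in HMLE-Twist and overlapped in HMLE-pBp. COG4 made up 22.7% of the sum in HMLE-Twist salinomycin and 34.3% in HMLE-Twist mock. COG6 made up 14.1% with salinomycin and 6.90% with the mock in that line. In HMLE-pBp, COG4 made up 23.5% with salinomycin and 27.6% with the mock, and COG6 11.2% with salinomycin and 5.61% with the mock. These sums and shares are descriptions and were not tested.

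The profiles of the subunits across libraries were compared. As a measure of likeness, Pearson's r of log2(FPKM + 1) was taken over the 12 libraries after subtracting the mean of each line, so the libraries share 2 treatments and their depth, and no test was made. COG1, COG3, COG5, COG6 and COG7 had r of 0.74 to 0.99 with each other, highest between COG3 and COG6. These are the subunits that rose in HMLE-Twist. The treatment means were not subtracted, so r carries the responses given above, and likeness within a treatment was not measured. COG2 had r of -0.59 to 0.26 with the other subunits, COG4 had r of -0.36 to 0.09, and COG8 had r of -0.59 to -0.19. The genes most like COG6 were COPA (0.997), the alpha subunit of the COPI coat, GOSR2 (0.995), a Golgi SNARE, and CBLB (0.992). Those most like COG3 were OSBP (0.997), a sterol-binding protein at ER-Golgi contacts, SPTY2D1 (0.996) and GFPT1 (0.996). The recovered lengths of COPA and GOSR2 were 1.18 and 1.26 of the nearest reference length, so their reads are less certain.

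The most like genes of the other members were TSPAN13, NUB1 and ARF4 for COG1 (0.969 to 0.988), CRK, SETD2 and BNC1 for COG2 (0.965 to 0.980), CDC25C, SSBP2 and DECR1 for COG4 (0.950 to 0.957), PAPSS2, DAP and COG6 for COG5 (0.979 to 0.985), ARMC9, MLLT4 and EBLN3 for COG7 (0.962 to 0.968) and ANO9, HNRNPU-AS1 and SNORD76 for COG8 (0.926 to 0.938). The median r over all tested genes lay between -0.08 and 0.05 for the 8 members.

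**Figure D4:**
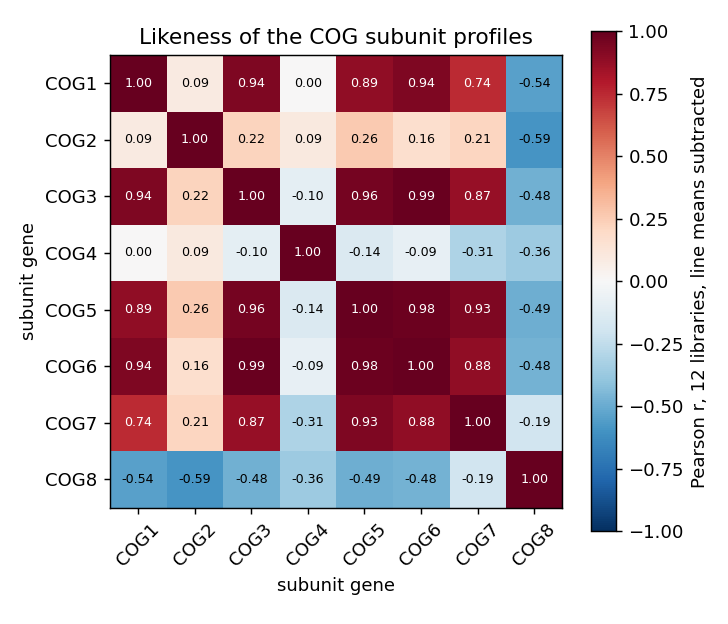
Pearson's r between subunit genes over 12 libraries, line means subtracted (colour scale and printed values). COG1, COG3, COG5, COG6 and COG7 form a block of r of at least 0.74, and COG8 has negative r with all others.

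The machinery that COG works with was described by lists. Their counts stand beside the shares of all tested genes that passed, 12.9% higher and 13.5% lower in HMLE-Twist, and 9.65% higher and 9.32% lower in HMLE-pBp. The COPI coat, which buds the vesicles that COG receives, rose in 7 of 9 subunits in HMLE-Twist (median log2 fold change 0.78) and in 8 of 9 in HMLE-pBp (0.82). COPA rose by 1.19 and 1.30 and COPG1 by 1.17 and 1.23 on the log2 scale in HMLE-Twist and HMLE-pBp. COPG2, the paralog of COPG1, was the 1 lower subunit in HMLE-Twist, at -0.44 (adjusted p = 0.00531), and its response differed between the lines (-0.61, adjusted p = 0.0137). Its recovered length was 0.564 of the nearest reference length, and that of COPA 1.18, so the reads of both are less certain than those of COPG1 (0.999). COPG2 was named after its value was seen.

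The golgins and coiled-coil tethers, which catch vesicles at a distance, rose in 7 of 9 genes in HMLE-Twist (median 0.66) and in 5 of 9 in HMLE-pBp (0.60). GOLGA2, the cis-Golgi matrix protein GM130, rose by 1.40 and 1.18, and GOLGB1, known as giantin, by 0.92 and 0.96 in HMLE-Twist and HMLE-pBp. Of the SNAREs and their SM partners, 15 of 17 were tested. In HMLE-Twist 6 rose and 2 fell (median 0.09), led by BET1L at 1.35 and GOSR2, with the length doubt given above, at 0.85, and VAMP3 (-0.39) and VPS45 (-0.34) were lower. In HMLE-pBp 7 rose (median 0.36), led by GOSR2 at 0.80 and STX5 at 0.78. The responses of BET1L (0.69), VAMP3 (-0.63) and VPS45 (-0.59) differed between the lines (adjusted p = 0.00552, 0.0226 and 0.00949).

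Of the Golgi proteins and glycosylation enzymes known to depend on COG, 14 of 15 were tested. In HMLE-Twist 7 rose and 1 fell, with a median of 0.29, and in HMLE-pBp 2 rose and 2 fell, with a median of -0.01. Of all tested genes, 26.4% passed in either direction in HMLE-Twist and 19.0% in HMLE-pBp, and the 4 of 14 in HMLE-pBp are not far from that share. GOLGB1 and GOLGA5, also on the golgin list, were the largest, with GOLGA5 at 0.87 in HMLE-Twist and 0.96 in HMLE-pBp. MGAT2, an N-glycan branching enzyme, was the 1 lower in HMLE-Twist (-0.33), and GALNT2 (-0.52), which starts mucin-type O-glycans, and MGAT5 (-0.32) were lower in HMLE-pBp. The difference of responses passed for ST3GAL1 (0.86, adjusted p = 0.00523), a sialyltransferase, TMEM165 (0.51, adjusted p = 0.0244) and MGAT5 (0.49, adjusted p = 0.0251). Of the Rab GTPases, 9 of 10 were tested. RAB2A rose (0.34) and RAB30 (-0.83) and RAB4A (-0.39) fell in HMLE-Twist, while RAB6A (0.72), RAB1A (0.61) and RAB2A (0.55) rose in HMLE-pBp. RAB30 was low, averaging 1.45 FPKM in HMLE-Twist salinomycin and 3.39 FPKM in HMLE-Twist mock. In HMLE-pBp it averaged 0.549 FPKM with salinomycin and 0.429 FPKM with the mock. Its difference of responses passed (-0.94, adjusted p = 0.00401) but rests on these low values. VAMP3, VPS45, MGAT2, GALNT2, MGAT5, ST3GAL1, TMEM165 and RAB2A were named after their values were seen.

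The subunits of other multisubunit tethers, GARP and EARP, NRZ, exocyst and TRAPP, were set beside COG, with 30 of 31 tested. In HMLE-Twist 2 rose and 1 fell, with a median log2 fold change of -0.03 against 0.34 for the COG subunits. In HMLE-pBp 4 rose, with a median of 0.13 against 0.38. Thus 3 of 30 passed in HMLE-Twist, against 26.4% of all tested genes, and 4 of 30 passed in HMLE-pBp, against 19.0%. The largest in each direction were NBAS of NRZ (0.52) and EXOC7 of the exocyst (-0.31) in HMLE-Twist and EXOC4 (0.47) in HMLE-pBp. TRAPPC10 (0.22) was the other to rise in HMLE-Twist, and TRAPPC6B (0.35), NBAS (0.34) and VPS53 (0.29) also rose in HMLE-pBp. TRAPPC6B was the 1 of 30 whose response differed between the lines (-0.49, adjusted p = 0.0295), against 13.8% of all tested genes. The difference between the COG subunits and the other tethers as sets was not tested.

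**Figure D5:**
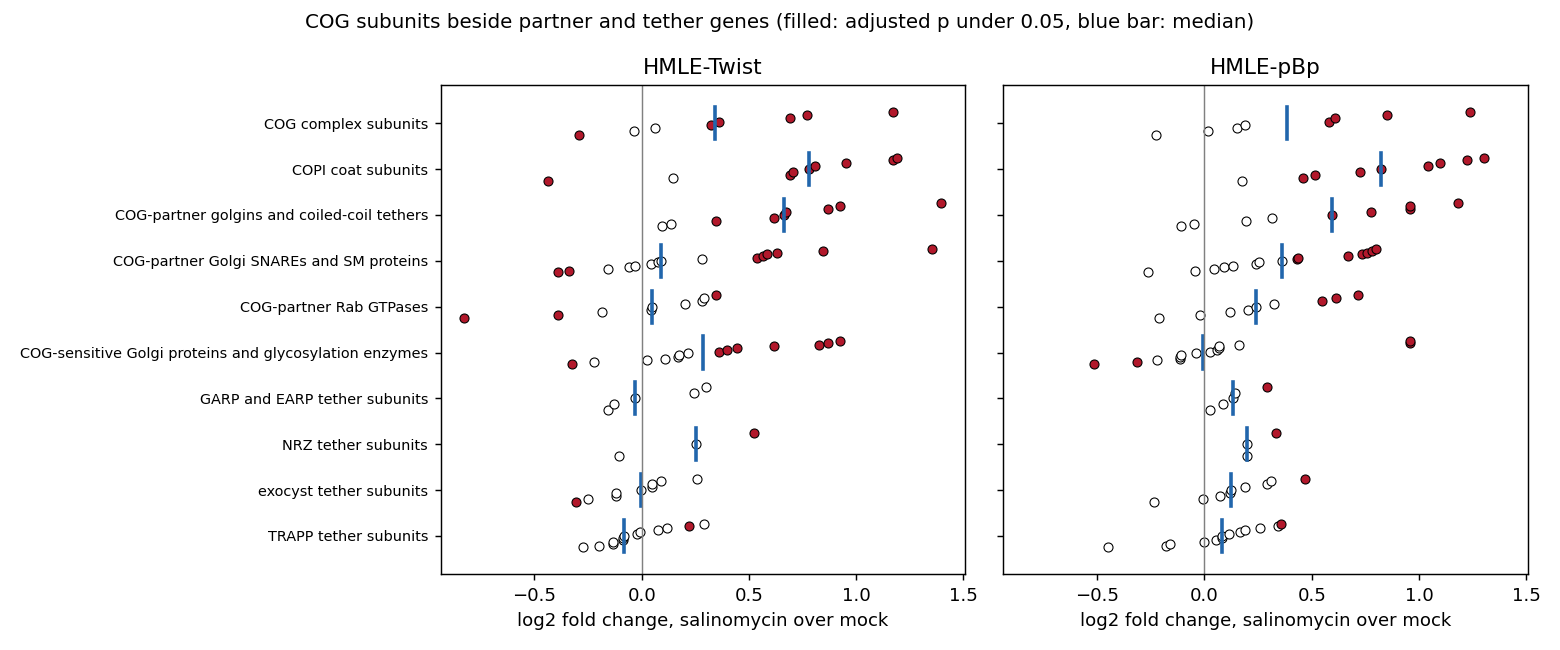
Log2 fold change, salinomycin over mock (horizontal axis), of each tested gene of the COG complex and of the lists of partner and tether genes, in HMLE-Twist and HMLE-pBp. Filled points have an adjusted p under 0.05 and blue bars are medians. The COPI median lies at 0.78 and 0.82, that of the COG subunits at 0.34 and 0.38.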

How the data were processed

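RNA of the 12 samples was sequenced as stranded mRNA libraries from 750 ng of RNA, with 75 cycles per end, per the labels. The authors deposited 4 tables of 26364 genes, made with DESeq2 (listed as 1.1.0) on build hg19, per the submitters' processing notes. The aligner, the counting tool and its use of strand are not given in these sources. The deposited mock tables hold FPKM and the deposited salinomycin tables, though named FPKM, hold shrunk log2 values, each normalized within its own table. They were therefore brought to one scale. Mock reads were recovered as whole multiples of the step of each gene, and salinomycin reads by inverting the shrinkage. Of the salinomycin values, 98.1% in HMLE-Twist and 95.5% in HMLE-pBp lay within 0.1 of a whole read. A whole gene length followed directly for 98.9% of the 12915 genes above 100 reads under the mock, and 69.5% of 12534 lengths lay within 5% of a GENCODE 29 length. The lengths of the COG genes lay within 2.50% of theirs. 1497 genes whose reads were not settled were left out, among them SEC22B, VTI1B, ST6GAL1 and TRAPPC8 of the lists.

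FPKM was rebuilt from these reads, scaled by size factors (median of ratios) set across the 12 libraries together. Genes that reached an FPKM of 1 in 3 or more libraries were tested with limma 3.58.1 in R 4.3.3 on log2(FPKM + 1), using lmFit and eBayes with its trend option, 4 groups and no covariate, and p-values were adjusted over all tested genes after Benjamini and Hochberg. The read recovery and the limma fit were run on simulated counts. These were drawn without any pairing of replicates, so the effect of pairing was not tested there. Within a line, same-numbered salinomycin and mock libraries deviated together from their group means (r = 0.45, 0.43 and 0.72 in HMLE-Twist, 0.54, 0.23 and 0.61 in HMLE-pBp), so the numbers pair the samples there. Between lines, r with salinomycin and with the mock was 0.28 and 0.26 for replicate 1 and 0.60 and 0.57 for replicate 3. Replicate 2 gave r of 0.04 and 0.07, and for that reason the numbers were not taken as pairs between lines. Fits with a block of shared numbers are given among the alternatives. With the block within each line 4779 genes passed in HMLE-Twist (3112 without), 4304 in HMLE-pBp (2234 without) and 3836 in the difference of responses (1620 without). The calls, standard errors and adjusted p-values of the members come from the fit without it unless another fit is named. So do the shares of all tested genes given beside them, which would be higher with it.

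The members and the 9 lists of partner and tether genes, with the markers and motifs, were chosen with earlier results of these data known. Named genes are all 8 members, up to 2 genes of each list with the largest change among those past the threshold in a comparison, and the 3 genes most like each member. Promoter sequences are from RefSeq (GRCh38.p14) and were not tied to the hg19 build of the tables.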

Additional observations from a re-analysis of the deposited data

Results flagged for a closer look

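The salinomycin response of COG4 differed between the lines, with a log2 difference of -0.48 ± 0.12 (SE, limma, adjusted p = 0.0251), HMLE-Twist minus HMLE-pBp. COG4 was lower with salinomycin in 3 of 3 HMLE-Twist libraries and higher in 3 of 3 HMLE-pBp libraries than in any mock library of the same line. Such lack of overlap was not counted over all tested genes, and COG8 had it in HMLE-pBp without passing (adjusted p = 0.158). The rise of COG4 in HMLE-pBp did not pass (adjusted p = 0.143), except with the replicate number as a block within each line (0.0499). The difference kept its call in 15 of the 19 alternatives run and in 8 of the 12 among them that left out 1 library, with a highest adjusted p of 0.0694.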

How the results depend on the processing

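The alternatives were a pseudocount of 0.1, no filter on low values, the total of reads as scaling, limma voom, 2 replicate blocks, only the groups compared, no gene left out, the deposited FPKM of the mock tables and each library left out in turn. COG1, COG3, COG5 and COG6 kept their direction and their call in both salinomycin comparisons under every alternative run, and COG7 did so in HMLE-Twist. These alternatives all used the same recovered reads, so the recovery was not varied. Mock and salinomycin reads were recovered in different ways, so an error of recovery cannot be told apart from a response to salinomycin by these fits. Leaving out 1 library left 5 to 6 members past the threshold in HMLE-Twist, 4 to 5 in HMLE-pBp, and 0 to 1 (COG4) in the difference of responses.

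With the replicate block within each line 4779 genes passed in HMLE-Twist, 4304 in HMLE-pBp and 3836 in the difference. With 1 block for each of the 3 shared numbers 3943 passed in HMLE-pBp and 3457 in the difference. The blocks changed no member's call in the salinomycin comparisons other than that of COG4 in HMLE-pBp within each line. Leaving out 1 library gave 1120 to 3119 genes in HMLE-pBp and 769 to 2380 in the difference. The lower counts came without salinomycin replicate 1 (1198), mock replicate 2 (1315) or mock replicate 3 (1120) of HMLE-pBp in the first, and in the second without salinomycin replicate 1 (804) or 3 (806) or mock replicate 2 (880) of HMLE-Twist, or salinomycin replicate 2 (1073), mock replicate 2 (897) or mock replicate 3 (769) of HMLE-pBp. The cause was not tested.

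Between the lines, the total of reads as scaling moved the median of all genes to 0.14. Under the mock 4 members then passed, against 2, with COG1 (0.24) and COG6 (0.40) higher in HMLE-Twist, and COG2 (0.016), COG7 (0.070) and COG8 (0.066) turned positive without passing. The deposited FPKM also gave positive values for COG2 (0.014), COG7 (0.068) and COG8 (0.064). COG6 passed with those tables, each normalized on its own, and with the block of shared numbers too. With salinomycin 2 members passed under that scaling (COG7 and COG8, higher), 2 with limma voom (COG5 and COG3, lower), 3 with the block of shared numbers (COG5, COG3 and COG8) and 1 to 3 with 1 library left out, against 1. The 3 came without salinomycin replicate 3 of HMLE-pBp (COG5, COG3 and COG8), and 2 passed without salinomycin replicate 1 of HMLE-pBp (COG5 and COG6) or mock replicate 1 or 3 of HMLE-Twist (COG5 and COG3). Values that were never called turned sign with 1 library left out, within -0.14 to 0.094 for COG2 in HMLE-Twist and -0.10 to 0.11 in HMLE-pBp, and in the difference within -0.16 to 0.079 for COG2, -0.17 to 0.026 for COG3 and -0.22 to 0.12 for COG6.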
